A study of Saccharomyces cerevisiae with 6 samples.

Results

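The cell wall gene set measured here holds 56 genes of budding yeast (Saccharomyces cerevisiae), chosen by name from wall proteins, the enzymes that make and remodel glucan and chitin, and the signalling pathway that guards the wall. All 56 had at least 1 probe set with a single gene symbol in the platform annotation, out of 5656 genes with such a probe set, and they were covered by 76 of the 9275 probe sets that are not controls. Transcripts were measured in total RNA on 6 single-sample oligonucleotide arrays. The arrays K91A 1 to K91A 3 came from a strain whose histone H4 carries alanine in place of lysine 91, a residue of the folded core of the histone, and WT 1 to WT 3 from one with the unaltered histone. All cells grew in the rich glucose medium YPD and were taken in exponential growth. The labels give no other genotype, no mating type and no word on separate cultures, and the p-values below therefore describe the spread among these 6 arrays, which may be technical. The title of K91A 3 names the mutant and its description names WT, and the title was followed.

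The yeast wall is a layer of beta-1,3-glucan, branched with beta-1,6-glucan and some chitin, to which mannoproteins are attached either through a remnant of a GPI anchor or, for the PIR proteins, by a direct alkali-sensitive bond to glucan. Sensors in the plasma membrane report strain on the wall to the small GTPase Rho1, which activates glucan synthase and the kinase Pkc1. Pkc1 starts a MAP kinase cascade (Bck1, then Mkk1 and Mkk2, then Slt2) that ends at the transcription factor Rlm1, which is known to induce many wall genes.

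The arrays differed in more than the histone allele. Median deposited intensity was 745 on K91A 3 and between 1828 and 3116.5 on the other 5. Pearson's r of log2 levels across probe sets was 0.918 to 0.976 within WT, 0.764 to 0.870 within K91A and 0.644 to 0.779 between the groups. For actin mRNA the signal of 5' probes over that of 3' probes, which falls when RNA is degraded or labelling is short, was 0.865, 0.843 and 0.877 on K91A 1 to 3 and 0.110, 0.114 and 0.365 on WT 1 to 3 (exact permutation test, two-sided, p = 0.1, the least possible with 3 arrays a side). For SRB4 it was 0.191, 0.285 and 0.480 against 0.10, 0.102 and 0.177, also apart, and for SPT15 it was 0.466, 0.676 and 0.302 against 0.140, 0.0837 and 0.445, where the groups overlapped (exact permutation p = 0.1 and 0.2). The part of these ratios in the results below was not tested. Levels are quantile-normalized log2(intensity + 16), listed in the order of the replicates 1 to 3, and differences are K91A minus WT, tested with limma and adjusted over all 6931 probe sets tested. The median difference of all probe sets was -0.070. It was -0.82 on the values as deposited and -0.18 with the arrays centred on their medians, so directions are relative to the bulk of transcripts. As deposited, 32 of the 6931 probe sets were called higher and 671 lower, so few increases of any gene pass in that setting.

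All 56 genes passed the filter on dim probe sets, with 1 probe set, that of the highest mean, standing for each. They were bright, with a median between the 83.4 (WT 3) and the 89.1 (K91A 3) percentile of the array's probe sets. The shares given beside them are not matched for level. At an adjusted p of 0.05, 13 of the 56 were higher in K91A and 3 were lower, and 40 did not pass. That is 23.2% higher and 5.36% lower, beside 15.1% and 14.4% of 5013 protein-coding genes (29.5% in either direction). Counted by probe sets, 16 of the 72 tested for these genes were higher and 3 lower, beside 15.4% and 14.8% of all 6931 (30.2% in either direction). Every K91A array was above every WT array for 20 members (35.7%, beside 23.9% of protein-coding genes) and below for 6 (10.7%, beside 29%). The median difference of the members was 0.22, that of protein-coding genes was -0.092, and 38 of the 56 values were positive and 17 negative. With median centring, 9 members were higher and 2 lower (16.1% and 3.57%, beside 13.6% and 16.4% of all probe sets), and their median was 0.055. The share higher was thus close to that of all probe sets in that setting. As deposited, 2 members were higher and 3 lower (3.57% and 5.36%, beside 0.462% and 9.68% of all probe sets), and their median was -0.59. With K91A 3 counted as WT, 0 were called in either direction, as for all probe sets. In that setting 6 members and 1056 of the 6931 probe sets had an unadjusted p under 0.05 in limma's test. Without K91A 1, 11 members were higher and 1 lower, beside 11.5% and 10.8% of all probe sets. Without WT 3, 10 were higher and 1 lower, beside 12.6% and 9.61%. Without K91A 3, 10 members were higher and 3 lower, beside 12.5% and 14.5% of all probe sets, and the members' median was 0.12. Without K91A 2, 22 were higher (39.3%) and 3 lower (5.36%), beside 16.5% and 16.8% of all probe sets, and the members' median was 0.37. Without WT 1, 6 were higher and 0 lower (10.7% and 0%, beside 7.70% and 5.64% of all probe sets). Without WT 2 the members' counts were the same, beside 6.91% and 5.22%. In these settings 18 and 16 members had an unadjusted p under 0.05 in limma's test, beside 2387 and 2261 of the 6931 probe sets.

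By class, the counts can be read beside the 15.1% higher and 14.4% lower of protein-coding genes. Of the 12 PIR and GPI wall proteins 4 were higher and 0 lower (median 0.27). Of the 27 enzymes and factors of glucan and chitin synthesis and remodelling 3 were higher and 3 lower (median 0.031). Of the 15 genes of the signalling pathway 5 were higher and 0 lower (median 0.28), and of the 2 yapsins, surface proteases, 1 was higher. The 3 decreases were all among the enzymes, at 11.1% of that class, below the 14.4% of protein-coding genes. The classes are small, and a difference between them was not tested. As deposited the counts were 2 and 0 for wall proteins, 0 and 3 for enzymes, and 0 and 0 for signalling, with medians of -0.64, -0.73 and -0.36. With median centring they were 2 and 0, 3 and 2, and 3 and 0, with medians of 0.0083, -0.086 and 0.29. All probe sets were then 13.6% higher and 16.4% lower. Without K91A 3 the counts were 3 and 0 for wall proteins, 2 and 3 for enzymes, and 4 and 0 for signalling. Without WT 1, and likewise without WT 2, they were 1 and 0, 1 and 0, and 3 and 0. Without K91A 2 they were 6 and 0, 6 and 3, and 8 and 0, without K91A 1 they were 3 and 0, 2 and 1, and 5 and 0, and without WT 3 they were 3 and 0, 3 and 1, and 3 and 0. The shares of all probe sets as deposited and without each array are given above.

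**Figure D1:**
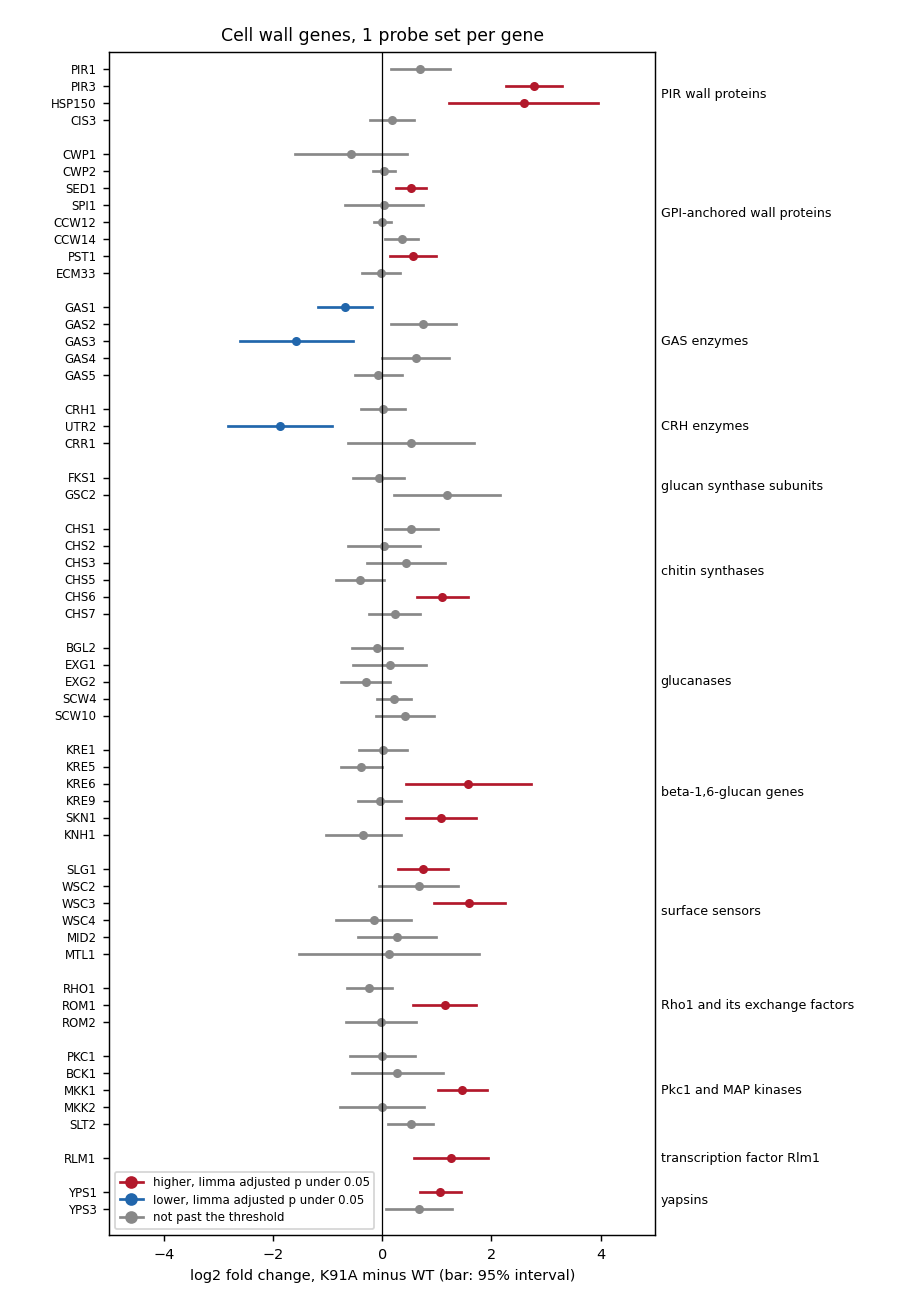
Log2 fold change (x axis, K91A minus WT) of the 56 cell wall genes, 1 probe set per gene, grouped by class, with points for the estimate and bars for the 95% interval of limma's fit on 3 arrays per group. The 13 genes higher in K91A (red) include PIR, GPI, chitin, beta-1,6-glucan and signalling genes, and the 3 lower (blue) are GAS1, GAS3 and UTR2.

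Among the PIR proteins, which carry internal repeats and cross-link glucan, PIR3 and HSP150 rose in K91A. PIR3 stood at 14.07, 14.11 and 14.08 on the K91A arrays and 11.62, 11.36 and 10.94 on the WT arrays. No WT array came near the K91A values, and the difference was 2.78 (SE 0.22, adjusted p = 0.00157), a 6.87-fold higher level. HSP150, also known as PIR2 and heat-inducible, stood at 14.65, 14.80 and 14.95 on the K91A arrays and 11.30, 11.65 and 13.68 on the WT arrays. WT 3 lay nearer to the K91A arrays than to the other WT arrays, though still below them, and the difference was 2.59 (SE 0.58, adjusted p = 0.0175). PIR1, the neighbour of PIR3 on the chromosome, was at 14.16, 13.47 and 14.22 on the K91A arrays and 13.24, 13.23 and 13.29 on the WT arrays. All 3 K91A arrays were above all WT arrays, but its difference of 0.70 (SE 0.23, adjusted p = 0.0568) did not pass. CIS3, the neighbour of HSP150 and also known as PIR4, was at 14.67, 14.42 and 15.04 on the K91A arrays and 14.53, 14.53 and 14.56 on the WT arrays, with overlapping groups and a difference of 0.17 (SE 0.17, adjusted p = 0.464). The PIR3 call was kept without each array in turn and on the values as deposited, at 1.98 (adjusted p = 0.0216). HSP150 no longer passed without WT 1 (2.14, adjusted p = 0.0559) or without WT 2 (2.29, adjusted p = 0.0658), and PIR1 passed without K91A 2 (0.96, adjusted p = 0.00502).

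GPI-anchored wall proteins are among the most abundant surface mannoproteins, and 2 of the 8 rose (25%, beside 15.1% of protein-coding genes). SED1, a structural protein best known from stationary cells, was at 14.83, 14.86 and 14.93 on the K91A arrays and 14.39, 14.22 and 14.43 on the WT arrays. The groups did not overlap, and the difference was 0.53 (SE 0.12, adjusted p = 0.0175). PST1, a protein secreted by wall-stressed protoplasts, was at 13.79, 13.44 and 13.89 on the K91A arrays and 13.18, 13.08 and 13.16 on the WT arrays, with a difference of 0.57 (SE 0.18, adjusted p = 0.0494). Both increases are small, and neither call was kept with the other scalings. As deposited SED1 was at -0.41 (adjusted p = 0.578) and PST1 at -0.30 (adjusted p = 0.739). With median centring they were at 0.24 (adjusted p = 0.534) and 0.34 (adjusted p = 0.385). In both settings the median of all probe sets, given above, was more negative than in the main one. The minus signs as deposited therefore do not show a decrease relative to the bulk of transcripts. SED1 lost its call without WT 1 (0.54, adjusted p = 0.0663) or without WT 2 (0.46, adjusted p = 0.0852), and PST1 without K91A 1 (0.53, adjusted p = 0.123), K91A 3 (0.46, adjusted p = 0.133), WT 1 (0.58, adjusted p = 0.129), WT 2 (0.53, adjusted p = 0.167) or without WT 3 (0.58, adjusted p = 0.0856).

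Other GPI proteins did not pass. CCW14, an inner-layer wall protein, was at 14.95, 14.71 and 14.83 on the K91A arrays and 14.63, 14.43 and 14.37 on the WT arrays. Its groups did not overlap, but the difference was 0.36 (SE 0.13, adjusted p = 0.0766), and it passed without K91A 2 (0.42, adjusted p = 0.0311). CWP1, a mannoprotein of the birth scar region, was at 13.91, 12.45 and 13.69 on the K91A arrays and 14.30, 14.13 and 13.34 on the WT arrays. K91A 2 was its lowest array, the groups overlapped, and the difference was -0.57 (SE 0.43, adjusted p = 0.342). For CWP2, SPI1 and the brighter probe set of ECM33 the differences were 0.033, 0.034 and -0.018. The other probe set of ECM33 was at 0.65 (adjusted p = 0.134). The probe set of CCW12, a major mannoprotein, was the brightest of all on every array, with deposited intensities of 77493, 49824 and 35504 on the K91A arrays and 84655, 107085 and 63324 on the WT arrays. Quantile normalization gives the brightest probe set of each array the same level, so its difference of 0 is fixed by that step, and with median centring it was -0.043 (adjusted p = 0.915). CWP2 lay at the 99.86 to 99.95 percentile of the arrays, so the same step limits how far CWP2 could rise.

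**Figure D2:**
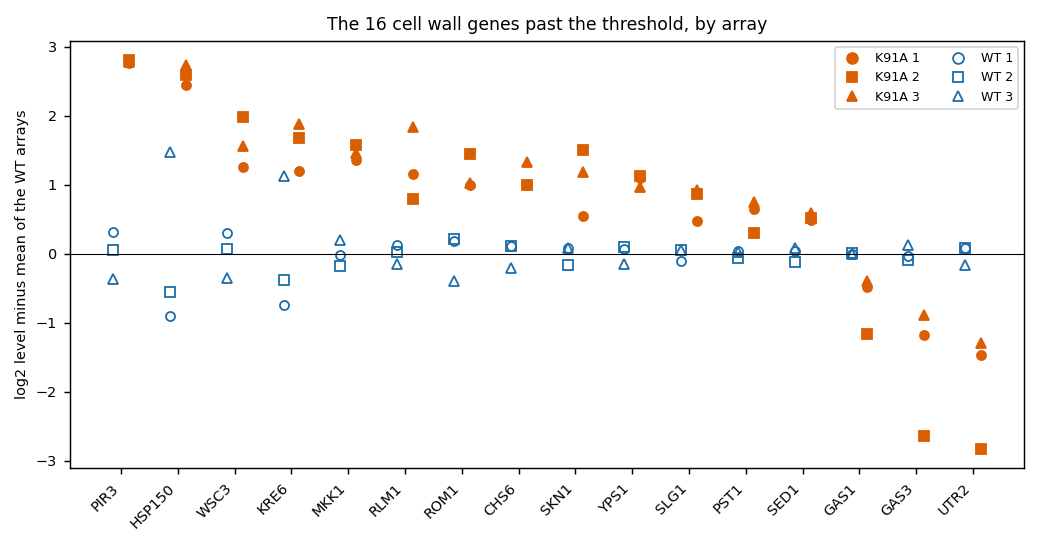
Log2 level of each of the 16 cell wall genes past the threshold on each array, less the mean of the 3 WT arrays (y axis), with filled symbols for K91A and open symbols for WT. WT 3 lies nearer the K91A arrays for HSP150 and KRE6, and K91A 2 lies farthest from WT for GAS1, GAS3 and UTR2.

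The 3 decreases were those of GAS1, GAS3 and UTR2, enzymes that lengthen or cross-link glucan chains at the surface. They make 11.1% of the 27 enzymes and factors, below the 14.4% lower of protein-coding genes, and 3 others of the 27 rose. GAS enzymes are GPI-anchored beta-1,3-glucanosyltransferases, and 2 of the 5 fell. GAS1, the main one in growing cells, was at 14.42, 13.75 and 14.51 on the K91A arrays and 14.90, 14.92 and 14.91 on the WT arrays, a difference of -0.68 (SE 0.21, adjusted p = 0.0474). GAS3 was at 12.37, 10.91 and 12.66 on the K91A arrays and 13.52, 13.45 and 13.68 on the WT arrays, and its K91A arrays were all below the WT arrays, with a difference of -1.57 (SE 0.44, adjusted p = 0.0359). For both genes the WT arrays were close together and K91A 2 was the lowest array. GAS1 did not pass without K91A 1 (-0.78, adjusted p = 0.0625), WT 1 (-0.69, adjusted p = 0.125), WT 2 (-0.68, adjusted p = 0.133) or without WT 3 (-0.68, adjusted p = 0.109), nor did GAS3 without K91A 1 (-1.82, adjusted p = 0.0522), WT 1 (-1.58, adjusted p = 0.0963), WT 2 (-1.60, adjusted p = 0.0931) or without WT 3 (-1.49, adjusted p = 0.0977). Without K91A 2, GAS3 was at -1.05 and GAS1 at -0.44, and both passed. GAS5, another vegetative member, differed by -0.068 (SE 0.18, adjusted p = 0.796).

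GAS2 and GAS4 are known for the spore wall. GAS2 was at 11.17, 10.45 and 11.00 on the K91A arrays and 10.24, 10.22 and 9.91 on the WT arrays, and its K91A arrays were all above the WT arrays, with a difference of 0.75 (SE 0.25, adjusted p = 0.0603) that did not pass. GAS4 was at 10.33, 9.70 and 10.15 on the K91A arrays and 9.48, 9.22 and 9.64 on the WT arrays, again without overlap, and differed by 0.61 (SE 0.26, adjusted p = 0.116). Both were dim, at the 30.5 to 54.3 percentile of the array's probe sets for GAS2 and the 20.3 to 37.8 for GAS4. GAS2 passed without K91A 2 (0.99, adjusted p = 0.0188).

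CRH enzymes join chitin to glucan. UTR2 (also CRH2) fell, with levels of 11.60, 10.24 and 11.78 on the K91A arrays and 13.15, 13.16 and 12.91 on the WT arrays. No K91A array came near the WT arrays, and the difference was -1.87 (SE 0.40, adjusted p = 0.0162), a 3.65-fold lower level. It did not pass without WT 1 (-1.83, adjusted p = 0.0575) or without WT 2 (-1.80, adjusted p = 0.0616). CRH1, the enzyme with an overlapping role, was at 13.73, 13.37 and 13.71 on the K91A arrays and 13.65, 13.66 and 13.45 on the WT arrays, and its difference was 0.012 (SE 0.17, adjusted p = 0.963). CRR1, the spore wall member, was at 12.28, 11.77 and 10.25 on the K91A arrays and 10.94, 10.87 and 10.92 on the WT arrays. K91A 3 was its lowest array and the other K91A arrays its highest, the difference was 0.53 (SE 0.49, adjusted p = 0.437), and it passed without K91A 3 (1.10, adjusted p = 0.0164).

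Glucan synthase is encoded by FKS1, the main catalytic subunit during growth on glucose, and GSC2 (also FKS2), the subunit induced by wall stress, in stationary phase and in sporulation. By their brightest probe sets neither passed. FKS1 was at 14.52, 13.93 and 14.59 on the K91A arrays and 14.35, 14.42 and 14.47 on the WT arrays, a difference of -0.067 (SE 0.20, adjusted p = 0.812). GSC2 was at 12.85, 13.39 and 13.69 on the K91A arrays and 11.69, 11.68 and 12.99 on the WT arrays, where WT 3 lay between K91A 1 and K91A 2, a difference of 1.19 (SE 0.41, adjusted p = 0.066). GSC2 passed without WT 3 (1.59, adjusted p = 0.0175). Their other probe sets gave other values. Of the 7 tested for FKS1, 1 was higher, 2840_s_at, at 13.63, 13.20 and 13.70 on the K91A arrays and 9.84, 10.30 and 12.12 on the WT arrays, a difference of 2.76 (SE 0.56, adjusted p = 0.0134). Of the 6 tested for GSC2, 2 were higher, 2211_s_at at 12.83, 13.09 and 13.01 on the K91A arrays and 9.45, 9.64 and 12.24 on the WT arrays, a difference of 2.53 (SE 0.70, adjusted p = 0.0341), and 2210_s_at at 12.56, 13.39 and 12.74 on the K91A arrays and 9.61, 9.86 and 11.47 on the WT arrays, a difference of 2.58 (SE 0.51, adjusted p = 0.0117). In each of these 3, WT 3 lay well above WT 1 and WT 2, the order that the 5' to 3' actin ratio also had (0.365 against 0.110 and 0.114). The tested probe sets of FKS1 ranged from -0.067 to 2.76 in difference and those of GSC2 from -0.32 to 2.58. The dim probe set of each that was not tested lay the other way, 2835_at of FKS1 at -1.43 and 2206_g_at of GSC2 at -1.18. The letter s in such identifiers marks probe sets whose probes may match more than 1 sequence, and the paralogues are alike in sequence, so these values may not belong to 1 gene.

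**Figure D3:**
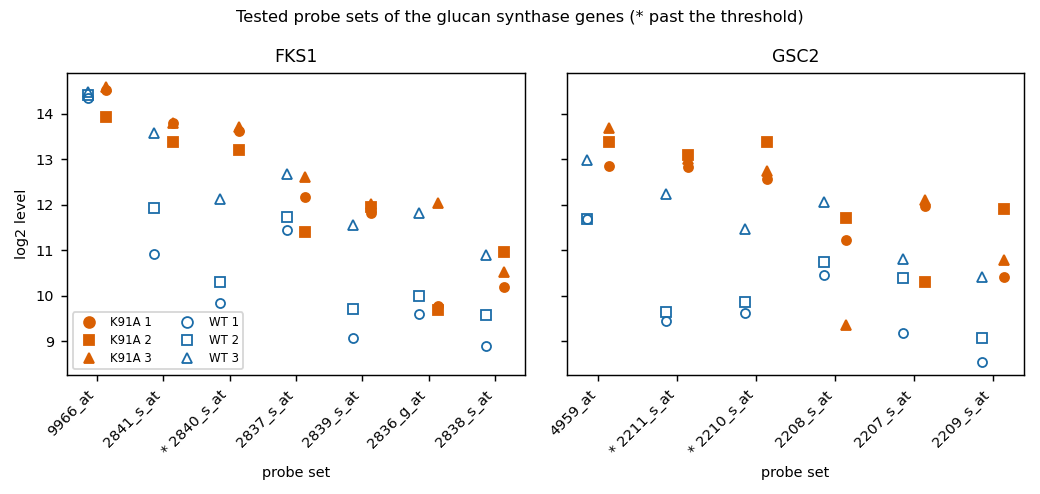
Log2 level (y axis) of the tested probe sets of FKS1 (left, 7) and GSC2 (right, 6) on each array, with filled symbols for K91A, open symbols for WT and an asterisk for probe sets past the threshold. The brightest FKS1 probe set shows overlapping groups, while 2840_s_at, 2211_s_at and 2210_s_at separate them, with WT 3 between the K91A arrays and the other WT arrays.

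Of the 6 chitin genes 1 rose (16.7%, beside 15.1% of protein-coding genes). CHS6, a factor that carries the chitin synthase Chs3 from the Golgi to the surface, was at 11.38, 11.39 and 11.72 on the K91A arrays and 10.50, 10.50 and 10.18 on the WT arrays. The groups were well apart, the difference was 1.10 (SE 0.20, adjusted p = 0.00919), and the call was kept without each array in turn. As deposited it was 0.47 (adjusted p = 0.687). CHS1, the repair chitin synthase at cell separation, was at 12.86, 12.36 and 12.75 on the K91A arrays and 11.97, 12.23 and 12.17 on the WT arrays. Its groups did not overlap, but the difference of 0.53 (SE 0.20, adjusted p = 0.0893) did not pass, and it did without K91A 2 (0.69, adjusted p = 0.0275). CHS3, which makes most of the wall's chitin, was at 12.91, 11.84 and 12.79 on the K91A arrays and 12.03, 12.12 and 12.11 on the WT arrays, with a difference of 0.43 (SE 0.30, adjusted p = 0.314) that likewise passed without K91A 2 (0.78, adjusted p = 0.016). CHS5, a part of the same export machinery as Chs6, was at 12.22, 12.04 and 12.46 on the K91A arrays and 12.64, 12.73 and 12.57 on the WT arrays. Its groups did not overlap in the other direction, and the difference was -0.41 (SE 0.19, adjusted p = 0.14). CHS2, the septum synthase, and CHS7, the factor that lets Chs3 leave the endoplasmic reticulum, differed by 0.031 and 0.23.

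None of the 5 glucanases and glucanase-like wall enzymes passed limma's test, and 0 had an unadjusted p under 0.05. SCW10 was at 13.78, 13.51 and 13.93 on the K91A arrays and 13.04, 13.22 and 13.73 on the WT arrays by the probe set of the highest mean, a difference of 0.41 (SE 0.23, adjusted p = 0.203). Its other probe set was at 14.19, 13.88 and 10.76 on the K91A arrays and 13.87, 13.91 and 14.15 on the WT arrays, where K91A 3 stood far below the rest, a difference of -1.03 (SE 0.84, adjusted p = 0.378). SCW4, its paralogue, was at 14.51, 14.79 and 14.58 on the K91A arrays and 14.35, 14.33 and 14.53 on the WT arrays, a difference of 0.22 (SE 0.13, adjusted p = 0.251). EXG2, a GPI-anchored exo-1,3-glucanase, was at 12.85, 12.59 and 12.37 on the K91A arrays and 12.97, 12.88 and 12.86 on the WT arrays, with no overlap and a difference of -0.30 (SE 0.19, adjusted p = 0.263). The glucanosyltransferase BGL2 was at 13.54, 14.10 and 13.73 on the K91A arrays and 13.72, 13.91 and 14.05 on the WT arrays, a difference of -0.10 (SE 0.19, adjusted p = 0.71). EXG1, the main exo-1,3-glucanase, differed by 0.14 (SE 0.28, adjusted p = 0.731). Across the 5 the 95% interval was widest for EXG1 (-0.53 to 0.81) and narrowest for SCW4 (-0.098 to 0.53). EXG1 passed without K91A 2 (0.47, adjusted p = 0.0365).

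The pair KRE6 and SKN1, paralogous glucosyl hydrolase-like proteins needed for beta-1,6-glucan, rose in K91A, and the other 4 genes of this polymer did not pass. KRE6 was at 12.37, 12.85 and 13.06 on the K91A arrays and 10.44, 10.80 and 12.30 on the WT arrays. WT 3 lay close to K91A 1 and far above WT 1 and WT 2, and the difference was 1.58 (SE 0.48, adjusted p = 0.0468). SKN1 was at 11.46, 12.42 and 12.10 on the K91A arrays and 10.99, 10.75 and 11.00 on the WT arrays, with WT arrays close together and a difference of 1.08 (SE 0.27, adjusted p = 0.0259). KRE6 did not pass without K91A 1 (1.84, adjusted p = 0.0665), K91A 2 (1.56, adjusted p = 0.0956), K91A 3 (1.40, adjusted p = 0.0946), WT 1 (1.20, adjusted p = 0.136) or without WT 2 (1.37, adjusted p = 0.145), nor SKN1 without K91A 3 (1.00, adjusted p = 0.0533), WT 1 (1.10, adjusted p = 0.0768), WT 2 (0.98, adjusted p = 0.0981) or without WT 3 (1.11, adjusted p = 0.0585). KRE5, a glucosyltransferase-like protein of the endoplasmic reticulum, was at 13.45, 13.22 and 13.20 on the K91A arrays and 13.80, 13.57 and 13.65 on the WT arrays by its brightest probe set, with no overlap and a difference of -0.38 (SE 0.16, adjusted p = 0.107). Of its 3 other tested probe sets, 2582_at was at -0.40 (SE 0.24, adjusted p = 0.232), 2583_g_at at 1.06 (SE 0.53, adjusted p = 0.171) and 2585_s_at at -0.029 (SE 1.22, adjusted p = 0.986), the last with K91A 3 at 6.70 and K91A 1 and 2 at 11.32 and 11.63. KNH1, the paralogue of KRE9, was at 10.34, 9.88 and 10.37 on the K91A arrays and 10.93, 10.65 and 10.03 on the WT arrays, a difference of -0.34 (SE 0.29, adjusted p = 0.4). KRE1 and KRE9, secreted proteins needed for the polymer, differed by 0.017 and -0.047.

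In the signalling pathway 5 of 15 genes rose, SLG1, WSC3, ROM1, MKK1 and RLM1, while RHO1, PKC1, BCK1, SLT2 and the other 6 did not pass. That is 33.3% of a small class, beside 15.1% of protein-coding genes. As deposited 0 of the 15 passed limma's test, with 1 at an unadjusted p under 0.05, where 0.462% of all probe sets were called higher. Of the 6 sensors, WSC3 and SLG1 rose. WSC3 was at 11.05, 11.77 and 11.36 on the K91A arrays and 10.09, 9.86 and 9.44 on the WT arrays. Its K91A arrays were all well above the WT arrays, the difference was 1.60 (SE 0.27, adjusted p = 0.00748), a 3.02-fold higher level, and the call was kept without each array in turn but not as deposited, at 0.99 (adjusted p = 0.352). SLG1 (also WSC1), the sensor with the broadest role in growing cells, was at 11.58, 11.96 and 12.02 on the K91A arrays and 10.99, 11.16 and 11.16 on the WT arrays, a difference of 0.75 (SE 0.20, adjusted p = 0.0284) that was not past the threshold without K91A 3 (0.65, adjusted p = 0.0635), WT 1 (0.68, adjusted p = 0.11), WT 2 (0.77, adjusted p = 0.0922) or without WT 3 (0.77, adjusted p = 0.0567). WSC2 was at 13.76, 12.72 and 13.59 on the K91A arrays and 12.93, 12.67 and 12.45 on the WT arrays, where the groups overlapped through K91A 2, and its difference of 0.67 (SE 0.30, adjusted p = 0.135) passed without K91A 2 (1.00, adjusted p = 0.0151). MID2, the other main sensor, was at 13.47, 12.62 and 13.12 on the K91A arrays and 13.07, 12.99 and 12.32 on the WT arrays, a difference of 0.28 (SE 0.30, adjusted p = 0.512). Its paralogue MTL1 varied too widely within K91A to be placed, at 10.34, 12.34 and 9.43 on the K91A arrays and 10.87, 10.78 and 10.06 on the WT arrays, with a 95% interval of -1.52 to 1.78. WSC4 differed by -0.15 (SE 0.29, adjusted p = 0.709).

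Next in the pathway stand Rho1 and the factors that load it with GTP. ROM1 rose, with levels of 12.74, 13.19 and 12.77 on the K91A arrays and 11.94, 11.97 and 11.35 on the WT arrays, no overlap and a difference of 1.15 (SE 0.25, adjusted p = 0.0158), and its call was kept without each array in turn but not as deposited, at 0.33 (adjusted p = 0.749). ROM2, the paralogue known as the main exchange factor, was at 12.67, 11.89 and 12.15 on the K91A arrays and 12.47, 12.40 and 11.92 on the WT arrays, a difference of -0.027 (SE 0.27, adjusted p = 0.947). RHO1 itself was at 13.55, 13.09 and 13.37 on the K91A arrays and 13.51, 13.56 and 13.64 on the WT arrays, a difference of -0.23 (SE 0.17, adjusted p = 0.34).

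In the kinase cascade MKK1 rose. It was at 11.58, 11.80 and 11.69 on the K91A arrays and 10.21, 10.04 and 10.43 on the WT arrays, a difference of 1.46 (SE 0.19, adjusted p = 0.00331) or 2.76-fold, and the call was kept without each array in turn but not as deposited, at 0.84 (adjusted p = 0.428). MKK2, the redundant kinase at the same step, was at 10.31, 10.20 and 10.63 on the K91A arrays and 10.71, 10.74 and 9.71 on the WT arrays, a difference of -0.0042 (SE 0.32, adjusted p = 0.992). SLT2, the MAP kinase, was at 12.19, 12.08 and 12.31 on the K91A arrays and 11.71, 11.71 and 11.59 on the WT arrays. Its groups did not overlap, yet the difference of 0.52 (SE 0.17, adjusted p = 0.0591) did not pass, and it did without K91A 2 (0.59, adjusted p = 0.0377). BCK1 was at 11.54, 10.46 and 11.76 on the K91A arrays and 11.01, 11.17 and 10.75 on the WT arrays, a difference of 0.28 (SE 0.35, adjusted p = 0.576), and it passed without K91A 2 (0.69, adjusted p = 0.0478). PKC1 was at 10.57, 11.30 and 11.08 on the K91A arrays and 10.89, 10.79 and 11.26 on the WT arrays, a difference of 0.0029 (SE 0.25, adjusted p = 0.993). RLM1, the transcription factor of the pathway, rose, with levels of 12.57, 12.22 and 13.26 on the K91A arrays and 11.55, 11.45 and 11.27 on the WT arrays and K91A 3 the highest. The difference was 1.26 (SE 0.29, adjusted p = 0.019), and it did not pass without WT 1 (1.32, adjusted p = 0.059), WT 2 (1.26, adjusted p = 0.0684) or without WT 3 (1.15, adjusted p = 0.0591).

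Yapsins are GPI-anchored aspartyl proteases whose transcripts are known to respond to wall stress. Both yapsins of the set had K91A arrays above all WT arrays, as did 23.9% of protein-coding genes. YPS1 was at 13.91, 13.94 and 13.78 on the K91A arrays and 12.88, 12.91 and 12.66 on the WT arrays, a difference of 1.06 (SE 0.16, adjusted p = 0.0049) whose call was kept without each array in turn but not as deposited, at 0.17 (adjusted p = 0.856). YPS3, its neighbour in tandem, was at 13.93, 13.08 and 13.86 on the K91A arrays and 12.99, 12.85 and 13.01 on the WT arrays, a difference of 0.67 (SE 0.25, adjusted p = 0.0862) that did not pass and that passed without K91A 2 (0.96, adjusted p = 0.00681). As deposited, the median difference of the pair was -0.0070, where that of all probe sets was -0.82.

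The 16 calls therefore differed in how they held when 1 array was left out. Those of PIR3, CHS6, WSC3, ROM1, MKK1 and YPS1 were kept in all 6 such settings, and the other 10 ended in 1 or more, among them all 3 decreases. With median centring 10 of the 16 were kept, and as deposited 5, those of PIR3, HSP150, GAS1, GAS3 and UTR2. Over all probe sets 13.6% were higher and 16.4% lower with median centring, and 0.462% and 9.68% as deposited. The values as deposited therefore favour decreases, and a decrease kept or an increase lost there says little of how a call holds. HSP150 and KRE6 stood out by WT 3, which was above the mean of WT 1 and WT 2 by 2.20 and 1.68 log2 units, the array on which the actin 5' to 3' ratio was also the highest of WT (0.365). For the other 14 called genes this gap was at most 0.60 in size. With each array's trend of level on coding length removed 14 members were higher and 5 lower (25% and 8.93%). Of the 5391 probe sets tested then, 16.2% were higher and 14.6% lower. The direction of all 16 was unchanged in that setting, with PIR3 at 2.89, HSP150 at 2.60, UTR2 at -1.91 and KRE6 at 1.41 (adjusted p = 0.0582, not past).

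Related genes were also set beside each other within each array, as the log2 level of 1 gene less that of the other, for 16 pairs of paralogues, neighbours or genes of like function. The pairs were chosen with the calls of their genes known, so these values are a description with no test. The groups did not overlap in 8 of the 16 pairs (for the levels of single protein-coding genes the shares were 23.9% with K91A above and 29% with K91A below, so such a count is not particular to these pairs). With the WT mean set to 0, MKK1 relative to MKK2 was at 1.43, 1.76 and 1.22 on the K91A arrays and -0.34, -0.54 and 0.88 on the WT arrays. ROM1 relative to ROM2 was at 0.57, 1.81 and 1.14 on the K91A arrays and -0.019, 0.073 and -0.054 on the WT arrays. CRH1 relative to UTR2 was at 1.62, 2.61 and 1.41 on the K91A arrays and -0.012, -0.013 and 0.025 on the WT arrays. In these 3 pairs every K91A array stood above every WT array. PIR1 relative to PIR3 differed by -2.08, HSP150 relative to CIS3 by 2.42, PST1 relative to ECM33 by 0.58, WSC2 relative to WSC3 by -0.93 and GAS1 relative to GAS5 by -0.61. FKS1 relative to GSC2 (-1.25), KRE6 relative to SKN1 (0.50) and YPS1 relative to YPS3 (0.39) overlapped, as did the other 5 pairs.

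**Figure D4:**
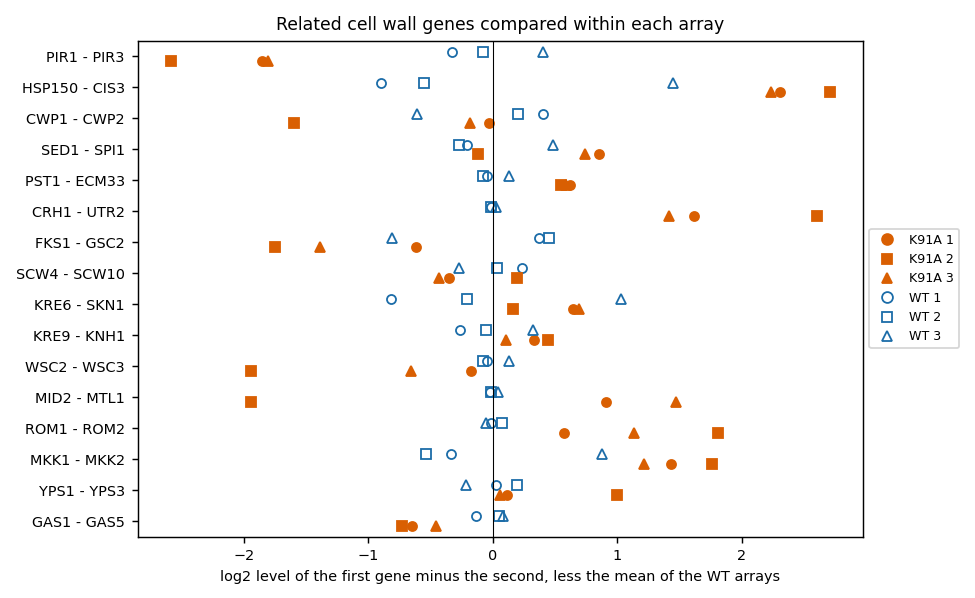
Log2 level of the first gene less that of the second on each array, less the mean of the WT arrays (x axis), for 16 pairs of related cell wall genes, with filled symbols for K91A and open symbols for WT. The groups are apart for 8 pairs, among them ROM1 and ROM2, MKK1 and MKK2, and CRH1 and UTR2.

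A further 49 genes of wall synthesis and signalling that are not in the set were read from lists of their own. Of the 46 tested, 7 were higher and 7 lower in K91A, 15.2% each, close to the 15.1% and 14.4% of protein-coding genes, with a median of 0.013. In the list of cascade phosphatases, the Slt2 paralogue and wall transcription factors, 3 of 7 were higher. They were the phosphatases PTP2 (1.24, SE 0.30, adjusted p = 0.0228) and MSG5 (0.76, SE 0.23, adjusted p = 0.0455), which are known to act on MAP kinases, and KDX1 (0.90, SE 0.24, adjusted p = 0.0284), a kinase-like paralogue of SLT2. The chitin deacetylase CDA1 (1.36, SE 0.18, adjusted p = 0.00348), known from the spore wall, and BCH2 (0.86, SE 0.24, adjusted p = 0.0341), a relative of CHS6, were higher in the list of chitin regulators. GNA1 (-0.78, SE 0.20, adjusted p = 0.0257) in the path to the chitin precursor was lower. FKS3, a further relative of FKS1 that is linked to the spore wall and lies next to GAS1, was at 12.42, 11.94 and 12.55 on the K91A arrays and 10.00, 10.02 and 10.26 on the WT arrays, a difference of 2.21 (SE 0.22, adjusted p = 0.0019). In the same list of glucan assembly factors 3 of 8 were lower. They were the glucosidases CWH41 (-1.92, SE 0.27, adjusted p = 0.00386) and ROT2 (-1.11, SE 0.20, adjusted p = 0.00863), which trim glycoproteins in the endoplasmic reticulum, and, named after its value was seen, the calnexin CNE1 (-0.77, SE 0.21, adjusted p = 0.0347). The yapsin YPS6 (0.68, SE 0.20, adjusted p = 0.0393) was higher, and as deposited it was at -0.091 (adjusted p = 0.943). The other yapsins of that list did not pass. MKC7 was at -0.73 (SE 0.31, adjusted p = 0.113), with every K91A array below every WT array, and YPS7 at 0.15 (SE 0.19, adjusted p = 0.565), with overlapping groups. Of the 5 daughter-cell separation genes 2 were lower, DSE1 (-1.54, SE 0.37, adjusted p = 0.0226) and SCW11 (-1.05, SE 0.27, adjusted p = 0.0277), and DSE2 (0.056), EGT2 (-0.23) and DSE4 (-0.48) did not pass. SVS1 (-1.17, SE 0.35, adjusted p = 0.0432) was lower in the list of further wall and cortex proteins. In bulk RNA, fewer cells of a type and less of a transcript per cell cannot be told apart.

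The calls of CDA1, FKS3, CWH41 and ROT2 were kept without each array in turn. Those of the other 10 ended without WT 1, where their adjusted p lay between 0.0604 and 0.144, and several also without other arrays. Without K91A 3 the counts of these lists were 3 higher and 7 lower, without K91A 1 2 and 3, without K91A 2 9 and 5, without WT 1 2 and 2, without WT 2 2 and 3, and without WT 3 3 and 3. As deposited they were 0 and 3, and with K91A 3 counted as WT 0 and 0. The shares of all probe sets moved between these settings too. They were 16.5% higher and 16.8% lower without K91A 2, 7.70% and 5.64% without WT 1, and 0.462% and 9.68% as deposited. Those of the other settings are given above.

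Genes that mark mating type and the haploid state were read to see whether the strains were alike in cell type. On all 6 arrays STE3 and MF(ALPHA)1, genes of alpha cells, lay at or above the 84.9 percentile of their array, while of the genes of a cells STE2 and BAR1 lay at or below the 35.7 percentile and were left out as dim, MFA2 lay at the 35.1 to 59.9 percentile and the brighter probe set of MFA1 at the 61.5 to 89.2 percentile. Of the 8 tested, 3 were higher and 1 lower, beside 15.1% and 14.4% of protein-coding genes. The higher were the a-cell genes MFA1 (1.40, SE 0.19, adjusted p = 0.00387) and MFA2 (0.99, SE 0.18, adjusted p = 0.00963) and the alpha-cell gene MF(ALPHA)2 (1.19, SE 0.26, adjusted p = 0.0174). The lower was the G protein subunit GPA1 (-2.09, SE 0.23, adjusted p = 0.00245). The a-cell genes STE2 (1.05) and BAR1 (0.79), which were not tested, also had every K91A array above every WT array. Of the protein-coding genes tested, 23.9% had that order and 29% the reverse. STE3 (-0.58, SE 0.20, adjusted p = 0.0656) did not pass, with every K91A array below every WT array. MF(ALPHA)1 (-0.12), STE4 (-0.23) and FUS1 (-0.70) had overlapping groups. The part of these marker genes in the results of the wall genes was not tested.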

How the data were processed

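Per the labels, total RNA of 6 samples was hybridised to single-sample arrays. The deposited table holds linear intensity values, 1 per probe set and array, and the steps by which the authors obtained them are not given in the sources used here. K91A 3 was grouped by its title.

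Gene symbols of probe sets are those of the platform annotation, and neighbours and coding lengths came from a RefSeq gene table (assembly R64). Values were set to log2(intensity + 16) and quantile normalized without the 60 controls. Probe sets lacking 2 values in either group (33) were left out, as were the dimmest 25% of the rest (2311), which left 6931. limma 3.58.1 (R 4.3.3) fitted each probe set with lmFit and moderated the variances with eBayes along their trend, with Benjamini-Hochberg adjustment and a threshold of 0.05. All adjusted p-values are from this test unless another is named. Log2 fold changes understate changes of dim probe sets. The procedure was also run on simulated data with independent arrays and large added changes. These held none of the differences between arrays given above, so that run cannot show how such differences act on the calls. No detection calls were used, and 3 arrays a group limit the precision.

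The members, lists, pairs and alternatives were chosen with earlier results of these data known. Given in full are the members past the threshold, up to 4 with the smallest p in each class and members whose probe sets disagree, and of the other lists up to 3 past the threshold. Tried as alternatives were array weights, the mean of a gene's probe sets, removal of the coding length trend, WT 1 and WT 2 averaged, each array left out, K91A 3 as WT, a replicate block, pseudocounts of 1 and 64, median centring, no normalization, other filters (none, the median) and no variance trend.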

Additional observations from a re-analysis of the deposited data

How the results depend on the processing

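The 13 higher and 3 lower members were 11 and 2 with the replicate number as a block (833 and 702 of all probe sets). The block ended the calls of PST1, GAS1, SKN1 and SLG1, and GSC2 passed with it. Deviations of same-numbered arrays from their group means correlated at 0.167, -0.152 and -0.0052. With 3 arrays a group these values cannot show whether same-numbered arrays shared a batch. The labels do not say what a number shares, so the numbers were not taken as pairs. With K91A 3 counted as WT the members were 0 and 0 (6 at an unadjusted p under 0.05 in limma's test), as were all probe sets (1056). With WT 1 and WT 2 averaged they were 6 and 0, and all probe sets 508 and 378 in place of 1068 and 1023. Array weights gave 24 members higher and 3 lower, beside 1470 (21.2%) and 1576 (22.7%) of the 6931 probe sets. The length trend removed gave 5 members lower (8.93%, beside 14.6% of 5391 probe sets). As deposited, 2 members were higher, all probe sets 32 higher and 671 lower, and the members' median was -0.59 (0.055 with median centring). A filter at the median gave 686 of 4621 probe sets higher and 686 lower. Without 1 array the members higher were 6 to 22, lower 0 to 3, their median 0.12 to 0.37, and all probe sets 479 to 1139 higher and 362 to 1161 lower. With median centring the split of all probe sets was 940 higher and 1137 lower. Other settings (pseudocounts, no filter, no trend, the mean of a gene's probe sets) gave 11 to 14 members higher and 2 or 3 lower. Of the other wall pathway genes, 7 higher and 7 lower, the block gave 3 and 4, WT 1 and WT 2 averaged 2 and 2, the filter at the median 4 and 6, and array weights 12 and 10. The causes of these shifts were not tested, and some of the settings also hold fewer arrays or probe sets.

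The sign of a gene's log2 fold change turned in some settings, where it took the values that follow. With K91A 3 counted as WT they were CIS3 -0.12, CRH1 -0.072, CHS2 -0.081, CHS7 -0.0077, EXG1 -0.13, KRE1 -0.091, ROM2 0.047, PKC1 -0.072 and BCK1 -0.17. With WT 1 and WT 2 averaged they were ECM33 0.0091, KRE9 0.00038, ROM2 0.060, PKC1 -0.067 and MKK2 0.16. With array weights they were SPI1 -0.37, GAS5 0.036, FKS1 0.096, MTL1 -0.52, ROM2 0.030 and PKC1 -0.068. With the mean of all probe sets of a gene they were ECM33 0.32, FKS1 0.99, SCW10 -0.31 and KRE5 0.060. With median centring they were CIS3 -0.11, CWP2 -0.19, SPI1 -0.25, CRH1 -0.23, CHS2 -0.017, EXG1 -0.086, SCW4 -0.084, KRE1 -0.21 and MKK2 0.050. With the coding length trend removed they were CRH1 -0.061, CHS2 -0.21, BGL2 0.020, KRE9 0.12, RHO1 0.0073, PKC1 -0.28 and BCK1 -0.075. As deposited they were YPS6 -0.091, PIR1 -0.17, CIS3 -0.76, CWP2 -0.84, SED1 -0.41, SPI1 -0.90, CCW14 -0.59, PST1 -0.30, CRH1 -0.87, CRR1 -0.25, CHS1 -0.31, CHS2 -0.66, CHS3 -0.39, CHS7 -0.60, EXG1 -0.73, SCW4 -0.73, SCW10 -0.45, KRE1 -0.85, WSC2 -0.18, MID2 -0.57, MTL1 -0.59, PKC1 -0.62, BCK1 -0.36, SLT2 -0.25 and YPS3 -0.19. Without 1 array in turn the values of genes whose sign turned ran over CRH1 -0.056 to 0.13, CHS2 -0.18 to 0.31, BGL2 -0.27 to 0.025, EXG1 -0.028 to 0.47, KRE1 -0.092 to 0.16, MKK2 -0.35 to 0.17, CWP2 -0.012 to 0.065, SPI1 -0.27 to 0.23, ECM33 -0.11 to 0.098, GAS5 -0.19 to 0.11, FKS1 -0.18 to 0.14, KRE9 -0.14 to 0.036, WSC4 -0.37 to 0.053, MTL1 -0.71 to 0.75, ROM2 -0.25 to 0.15 and PKC1 -0.16 to 0.22. The filter at the median left out MTL1, MKK2, CHS6, WSC3, GAS2, GAS4 and KNH1, and GAS4 was also left out without K91A 1, so these have no value there.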
